A study of Homo sapiens with 4 samples.

Results

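The genes described here encode the machinery that copies DNA in S phase, from the licensing of replication origins to the joining of new strands, the packaging of the new DNA and the supply of nucleotides. They were taken from a list of 51 symbols. The probe set with that symbol in the platform annotation stood for each gene, and all 51 had 1, out of 17687 genes measured with a named probe set. RNA came from A549 cells, a long-established line from a human lung adenocarcinoma. A short hairpin RNA had depleted LDOC1 in them, and all 4 arrays carry that depletion and come from cells kept in puromycin at 5 µg/mL, an antibiotic that kills cells without a resistance gene. In 2 of them the depleted cells also expressed H2BK120R, an H2B histone that cannot be monoubiquitylated at that lysine, and the other 2 came from depleted cells with the empty vector. The submitters' design text says that H2Bub1, the monoubiquitylated form of H2B, went up on depletion and down again with the mutant. The comparison therefore asks how replication transcripts differ once the mark is reduced on the LDOC1-depleted background.

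The groups have limits as a model. Cells given an unmutated H2B were not analysed here, nor were cells that keep LDOC1, so an effect of the mutation and one of extra histone cannot be told apart. The cultures were past 90% confluency at extraction, and the share of cells in S phase was not measured. The labels do not say whether replicates were separate cultures, so the p-values reflect array-to-array spread that may be technical. LDOC1 was at 8.37 and 8.66 on the log2 scale with H2BK120R and at 8.0 and 8.33 with vector, which compares 2 depleted lines and does not check the depletion. The epithelial keratin gene KRT8 (17.11 to 17.20 over the 4 arrays) and ALDH1A1, an aldehyde dehydrogenase (17.64 to 17.80), were bright, whereas EPCAM, an epithelial surface marker, was dim (5.16 to 5.76). Of 15 measured markers of leukocytes, fibroblasts and endothelium, 13 had a mean below the median level of all probe sets, 6.41. CD68 and COL1A2 were the exceptions, and without detection calls none can be called absent. Vector replicate 1 stood apart slightly, with correlations of 0.990 to 0.991 with the other arrays, where the remaining pairs reached 0.993 to 0.994.

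As background, replication is prepared in G1, when the origin recognition complex (ORC), CDC6 and CDT1 load the ring of MCM subunits onto DNA. Kinases then recruit CDC45 and GINS, which switch that ring on as the moving helicase. DNA polymerase alpha with primase starts each strand, polymerases epsilon and delta extend it on the PCNA clamp, which the RFC complex loads, and FEN1 and LIG1 finish the lagging strand. Many of these genes are switched on together before S phase by E2F transcription factors, which bind DNA letters of the kind TTTGGCGC. In budding yeast, monoubiquitylated H2B is known to help nucleosomes form behind the fork.

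Because joint regulation by E2F is what these genes are best known for, 4 promoters are shown that carry E2F-type letters. They were picked from both ends of the order of differences and from the licensing genes. Each run is the 250 bases before the annotated start, 5′ to 3′ on the gene's strand, from RefSeq's GRCh38.p14 table. Capitals mark every match to TTTGGCGC, TTTCCCGC, TTTCGCGC or TTTGCCGC on either strand. The POLE4 promoter (chr2:74958393-74958642, plus strand) has 1 match that begins at position -31 from the start, and POLA2 (chr11:65261712-65261961, plus strand) has 1 at -53. MCM6 (chr2:135876444-135876693, minus strand) has 4, at -152, -148, -90 and -86, which overlap in pairs on opposite strands. CDT1 (chr16:88803539-88803788, plus strand) has 1 at -35.
POLE4: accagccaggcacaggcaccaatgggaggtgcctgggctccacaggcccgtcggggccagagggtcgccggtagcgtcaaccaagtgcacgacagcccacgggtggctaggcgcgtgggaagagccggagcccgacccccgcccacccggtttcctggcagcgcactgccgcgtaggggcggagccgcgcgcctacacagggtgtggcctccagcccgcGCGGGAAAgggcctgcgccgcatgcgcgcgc
POLA2: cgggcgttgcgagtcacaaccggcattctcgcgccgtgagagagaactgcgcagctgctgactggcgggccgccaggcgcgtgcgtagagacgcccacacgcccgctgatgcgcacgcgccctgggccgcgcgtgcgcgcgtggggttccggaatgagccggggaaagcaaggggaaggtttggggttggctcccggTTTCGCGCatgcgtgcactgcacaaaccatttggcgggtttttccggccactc
MCM6: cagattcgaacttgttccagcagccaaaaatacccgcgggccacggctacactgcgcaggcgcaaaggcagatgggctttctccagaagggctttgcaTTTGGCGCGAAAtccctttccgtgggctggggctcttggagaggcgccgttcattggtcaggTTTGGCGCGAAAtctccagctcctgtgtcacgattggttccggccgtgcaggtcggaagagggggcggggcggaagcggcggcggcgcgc
CDT1: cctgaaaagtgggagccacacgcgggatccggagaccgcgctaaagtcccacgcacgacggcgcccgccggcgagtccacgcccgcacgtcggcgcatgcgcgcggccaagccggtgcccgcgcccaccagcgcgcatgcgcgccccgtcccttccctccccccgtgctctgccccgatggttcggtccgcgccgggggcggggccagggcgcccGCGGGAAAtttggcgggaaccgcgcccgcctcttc

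Promoters were matched for 45 of the 51 genes, and 17 of these 45 (37.8%) held at least 1 of the 4 octamers in that window, against 3.40% of the 27305 genes in the table. Counted by promoter entry, of which some genes have several that overlap, the shares were 27.4% of 62 entries and 2.79% of 35116. The CCAAT letters, searched on both strands, were present for 60.0% of the 45 genes and 37.0% of all genes. The genes with E2F-type letters did not sit on one side of the comparison. Their median log2 difference was 0.025 (H2BK120R minus vector), with 9 higher and 8 lower and a range from -0.92 for POLE4 to 0.39 for POLA2. The 28 matched genes without them had a median of 0.035, with 15 higher and 13 lower. A match describes the letters and does not show that a factor binds there. Nor does the lack of a match show that E2F leaves a gene alone. The search took 4 octamers before the start only, and CDC6, MCM2 and RRM2 are among the 28 without them. The split therefore cannot show whether genes driven by E2F moved together. GINS4, MCM4, MCM5, POLD3, RPA2 and RPA3 were not matched.

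As a group, the replication genes were nearly level between the cells with H2BK120R and the vector cells. Of the 51 genes 28 were higher with H2BK120R, 22 were lower and GINS4 was equal. The median difference was 0.035, beside 0 over all 21448 probe sets and 0.03 over the brighter 10724. The smallest adjusted limma p of a member was 0.492, so 0 passed the threshold of 0.05, as did 0% of all probe sets. At an unadjusted limma p under 0.05 there were 2 members, POLE4 and RPA3, both lower, or 3.92% of the list, against 6.70% of all probe sets in either direction, 3.62% on the higher side and 3.08% on the lower side. With single arrays left out the count of members could change, and the count over all probe sets changed too. The difference of POLE4 then stayed between -1.07 and -0.76, and that of RPA3 between -0.59 and -0.53. The groups did not overlap in 17 members (33.3%), 8 higher and 9 lower. Of all probe sets 36.5% had no overlap, 18.6% on the higher and 17.9% on the lower side. The difference exceeded the gap between replicates in both groups for 13 members (25.5%), against 24.3% of all probe sets. Each of these shares was close to or below the background.

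The precision bounds what may have been missed. The standard error of a member's difference ran from 0.12 to 0.32 with a median of 0.17. For 48 of the 51 genes the 95% confidence interval, unadjusted, lay within a 2-fold change either way, and for 32 within a 1.5-fold change. The 3 whose interval reached past 2-fold were POLE4, RPA3 and POLD1, all on the lower side. In 35 genes the difference was under 0.2 in size. In bulk RNA, fewer cells in S phase and less RNA per cell cannot be told apart. With 2 arrays against 2, the smallest two-sided p that an exact permutation test of 1 gene allows is 0.333.

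**Figure D1:**
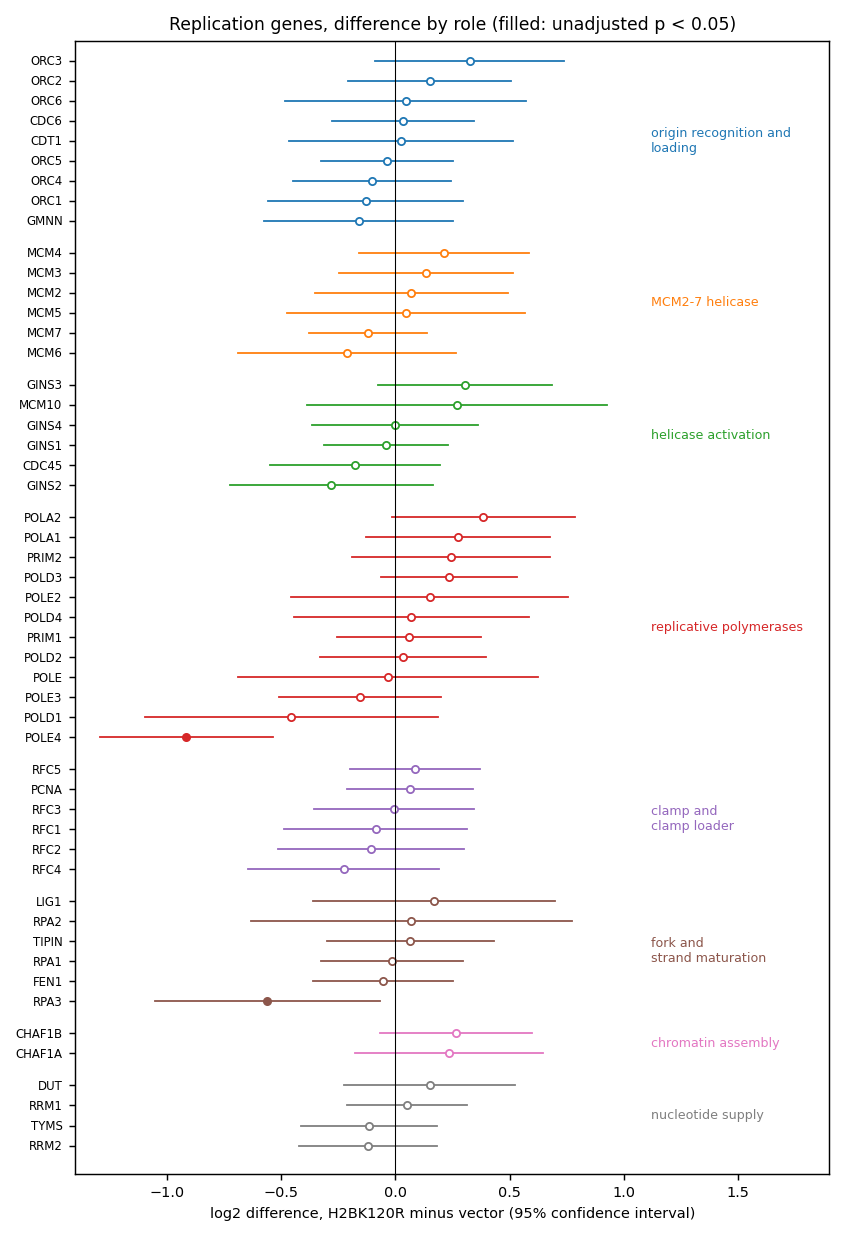
Log2 difference (H2BK120R minus vector) of each of the 51 genes with limma's unadjusted 95% confidence interval, grouped by role and sorted within a role. The intervals of POLE4 and RPA3 lie below 0, all others span it, and the POLA2 interval has its lower end at -0.015.

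The licensing genes, which mark origins and load the helicase, showed small differences of both signs. CDC6, the loading ATPase, was at 12.94 and 13.05 with H2BK120R and 12.80 and 13.12 with vector. CDT1, which brings the MCM ring to the origin, was at 9.21 and 8.88 with H2BK120R and 8.80 and 9.24 with vector. In both genes the H2BK120R arrays lay between the 2 vector arrays, with differences of 0.035 ± 0.14 and 0.025 ± 0.22 (limma's SE here and below). GMNN, which encodes geminin, the inhibitor of CDT1, was at 9.62 and 9.60 with H2BK120R and at 9.60 and 9.94 with vector. The vector arrays thus differed from each other by more than the groups did, and GMNN had the lowest difference of the 9 loading genes, -0.16 ± 0.19. The highest was that of ORC3, a core subunit of the origin recognition complex, at 9.68 and 9.99 with H2BK120R and 9.47 and 9.55 with vector. Its groups did not overlap, and the difference of 0.33 ± 0.19 had an unadjusted limma p of 0.110. Of the 6 ORC subunits 3 were higher and 3 lower, and ORC4 (-0.10 ± 0.16) was the other one without overlap. The median over the 9 genes was 0.025, and -0.09 without vector replicate 1.

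The 6 subunits of the MCM ring, the core of the replicative helicase, split into 4 that were higher and 2 that were lower with H2BK120R. Their median was 0.058. Leaving out H2BK120R replicate 1 moved it to 0.22, and leaving out H2BK120R replicate 2 to -0.078. MCM2, often used as a marker of cycling cells, was at 9.07 and 9.27 with H2BK120R and 9.07 and 9.13 with vector, so the groups overlapped. MCM4 had the highest difference, 0.22 ± 0.17, at 13.48 and 13.61 with H2BK120R and 13.05 and 13.61 with vector. It rests on vector replicate 1, the 1 array below the other 3, and was -0.065 without that array. MCM6 had the lowest, -0.21 ± 0.22, at 8.15 and 8.25 with H2BK120R and 8.28 and 8.54 with vector, and its groups did not overlap. MCM7 lay lower without overlap as well (-0.12 ± 0.12), and MCM3 (0.14 ± 0.17) and MCM5 (0.05 ± 0.24) were slightly higher. MCM5 differed by 0.46 between the H2BK120R arrays and by 0.71 between the vector arrays, both more than its group difference. In 5 of the 6 subunits replicate 2 was above replicate 1 with H2BK120R, and in 4 of 6 with vector.

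The factors that turn the loaded ring into an active helicase also split. GINS3 was the highest, at 10.62 and 10.57 with H2BK120R and 10.13 and 10.45 with vector, a difference of 0.31 ± 0.17. GINS2 was the lowest, at 9.05 and 8.86 with H2BK120R and 9.38 and 9.09 with vector, a difference of -0.28 ± 0.20. These are partner subunits of the same GINS tetramer, and in neither did the groups overlap. GINS1 differed by -0.04 ± 0.12 and GINS4 by 0 ± 0.17. CDC45, which joins GINS on the ring, was lower without overlap (-0.18 ± 0.17), and MCM10, which helps start unwinding, was higher with overlap (0.27 ± 0.30).

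**Figure D2:**
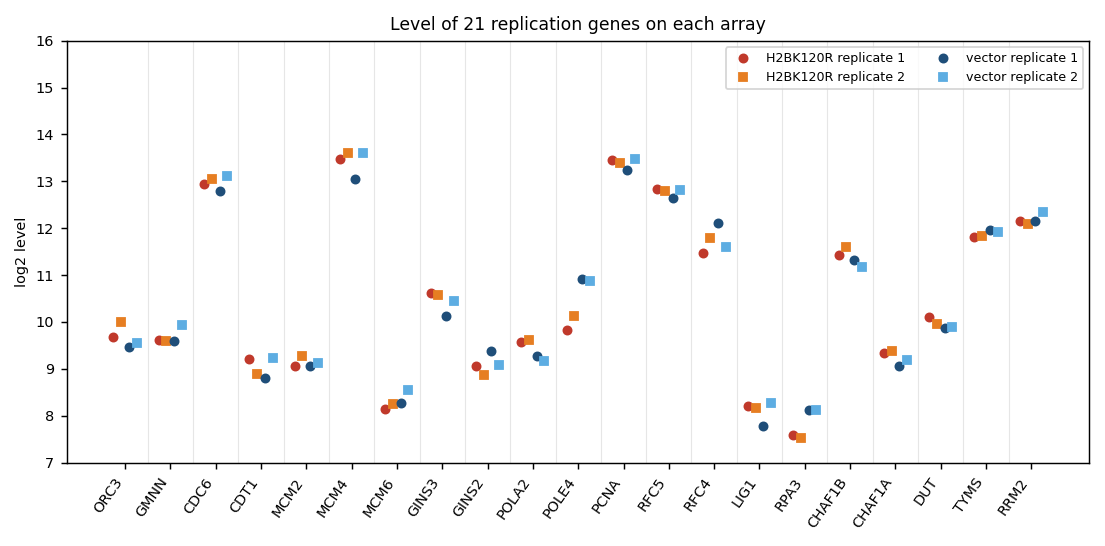
Log2 level on each of the 4 arrays for 21 replication genes; levels are read within a gene only, since probe sets differ in brightness. POLE4 and RPA3 are below vector on both H2BK120R arrays, while PCNA, CDC6 and CDT1 interleave.

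The polymerases held both ends of the order. POLE4, a small histone-fold accessory subunit of polymerase epsilon, was at 9.82 and 10.13 with H2BK120R and at 10.91 and 10.87 with vector. Both H2BK120R arrays lay clearly below both vector arrays, by more than the gap within either pair. The difference was -0.92 ± 0.17, or 47.0% lower (ratio 0.53, unadjusted 95% interval 0.41 to 0.69). Its unadjusted limma p of 2.49e-04 ranked 8 among the 21448 probe sets, counted from the smallest, and the adjusted p was 0.492. Across the 13 alternatives its difference stayed between -1.07 and -0.76 and its unadjusted limma p at or below 0.0111. The other polymerase epsilon genes did not share the size of that difference. POLE3, the histone-fold partner of POLE4, differed by -0.16 ± 0.16, the catalytic POLE by -0.03 ± 0.30 and POLE2 by 0.15 ± 0.28. POLE was at 8.22 and 7.38 with H2BK120R and at 8.02 and 7.64 with vector, so its 2 mutant arrays enclosed the vector arrays.

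Polymerase alpha and primase, which lay down the primers, were higher in all 4 subunits, with a median of 0.26. POLA2, the regulatory subunit, was the highest member of the whole list, at 9.58 and 9.62 with H2BK120R and 9.27 and 9.16 with vector. The groups did not overlap, and the difference of 0.39 ± 0.18, or 30.6% higher (unadjusted 95% interval of the ratio 0.99 to 1.72), had an unadjusted limma p of 0.0577 and an adjusted p of 0.745. POLA1, the catalytic subunit, differed by 0.28 ± 0.18, also without overlap. The primase subunits PRIM1 and PRIM2 differed by 0.06 ± 0.14 and 0.25 ± 0.20 with overlap, and without H2BK120R replicate 2 they were -0.015 and -0.045. Of the polymerase delta genes 3 were higher and 1 lower. POLD3 lay higher without overlap (0.24 ± 0.13), POLD2 and POLD4 were near level (0.035 ± 0.16 and 0.07 ± 0.23), and the catalytic POLD1 was lower without overlap (-0.46 ± 0.29). POLD1, singled out after its values were seen, was at 5.41 and 5.46 with H2BK120R and 6.0 and 5.78 with vector, and is the 1 member below the median level of 6.41. Over the 12 polymerase genes the median was 0.065, and 0.22 without vector replicate 2.

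The sliding clamp and its loader were close to level. PCNA, the clamp itself, was at 13.45 and 13.40 with H2BK120R and 13.25 and 13.47 with vector, a difference of 0.065 ± 0.13 with a 95% interval from -0.21 to 0.34. None of these 6 genes had groups without overlap. RFC5 had the highest difference, 0.085 ± 0.13, at 12.83 and 12.80 with H2BK120R and 12.64 and 12.82 with vector. RFC4 had the lowest, -0.23 ± 0.19, at 11.46 and 11.79 with H2BK120R and 12.11 and 11.59 with vector. For RFC4 the vector arrays were 0.52 apart, and the difference was 0.035 without vector replicate 1. RFC1, the large loader subunit, and RFC2 and RFC3 differed by -0.085 ± 0.18, -0.11 ± 0.18 and -0.005 ± 0.16.

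Among the genes that cover and join the strands, RPA3 stood out. It encodes the smallest subunit of replication protein A, which coats single-stranded DNA, and was at 7.59 and 7.53 with H2BK120R and at 8.12 on both vector arrays. The pairs were tight and separate, with a difference of -0.56 ± 0.22, or 32.2% lower (ratio 0.68, unadjusted 95% interval 0.48 to 0.95). The unadjusted limma p was 0.0292 and the adjusted p 0.745. With single arrays left out the difference stayed between -0.59 and -0.53, and its unadjusted limma p was above 0.05 whichever array was left out, reaching 0.109. Of the other subunits of the same trimer, RPA1 was level at -0.015 ± 0.14. RPA2, at 0.07 ± 0.32, was 0.93 apart between the vector arrays. Its unadjusted 95% interval ran from -0.63 to 0.77 and includes the difference of RPA3, so RPA2 is not shown to differ from RPA3. LIG1, the ligase that seals nicks, had the highest difference of these 6 genes, 0.17 ± 0.24, at 8.21 and 8.17 with H2BK120R and 7.77 and 8.27 with vector. FEN1, the flap nuclease, differed by -0.055 ± 0.14, and TIPIN, which with TIMELESS steadies the fork, by 0.065 ± 0.17.

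CHAF1A and CHAF1B, the large and middle subunits of chromatin assembly factor 1, which deposits histones H3 and H4 on new DNA, were higher without overlap. Its small subunit, RBBP4, was listed among the partners and had overlapping groups, at 11.51 and 11.64 with H2BK120R and 11.36 and 11.56 with vector. CHAF1B was at 11.43 and 11.60 with H2BK120R and 11.33 and 11.17 with vector, a difference of 0.27 ± 0.15 (limma adjusted p = 0.767). CHAF1A was at 9.34 and 9.37 with H2BK120R and 9.05 and 9.19 with vector, a difference of 0.24 ± 0.19 (limma adjusted p = 0.829). The median of CHAF1A and CHAF1B stayed between 0.20 and 0.30 with any 1 array left out, and neither difference passed the threshold.

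The nucleotide enzymes were level. RRM2, the regulated subunit of ribonucleotide reductase, was at 12.15 and 12.10 with H2BK120R and 12.15 and 12.34 with vector (-0.12 ± 0.14), and its partner RRM1 differed by 0.05 ± 0.12. TYMS, which makes thymidylate, was at 11.81 and 11.84 with H2BK120R and 11.97 and 11.91 with vector, narrowly without overlap (-0.12 ± 0.14). DUT, which keeps uracil out of DNA, was at 10.10 and 9.96 with H2BK120R and 9.86 and 9.90 with vector, also narrowly without overlap in the higher direction (0.15 ± 0.17). All 4 intervals lay within a 1.5-fold change. RefSeq names pseudogenes after 13 of the members, among them DUT with 8, PCNA with 4, RPA3 with 2 and POLE4 with 1, and signal from such copies was not told apart.

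**Figure D3:**
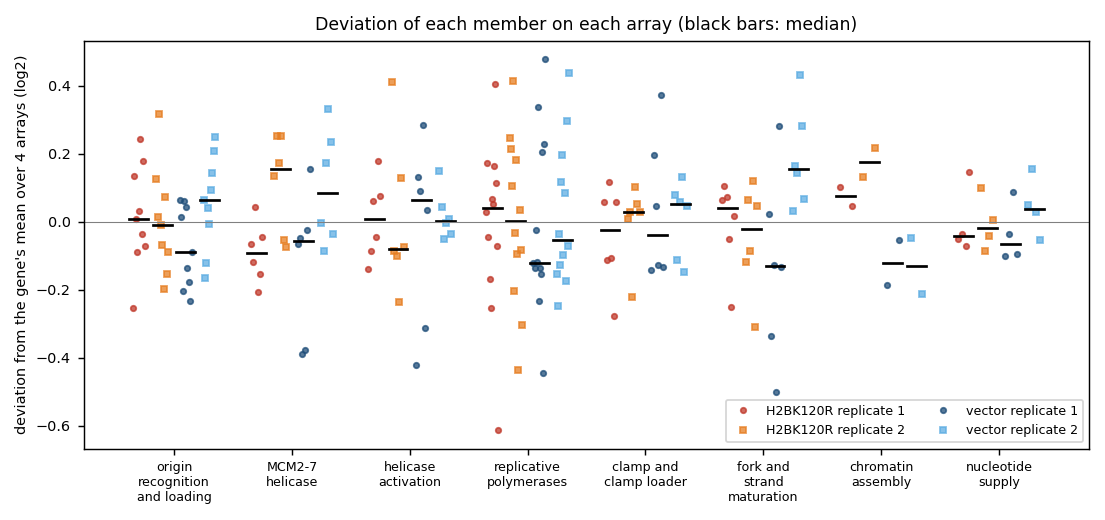
Deviation of each gene on each array from that gene's mean over the 4 arrays (log2), by role, with black bars at the median of each array. In the MCM ring the bars of the H2BK120R arrays lie at -0.091 and 0.15 and those of the vector arrays at -0.056 and 0.084, so the replicates differ more than the groups.

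The gap between the 2 replicates of a group was similar in size to most of these differences. A gap compares single arrays and a difference compares means of 2 arrays, so the sizes are not on equal terms. Over the 51 genes the median gap between replicates was 0.14 with H2BK120R and 0.19 with vector, against a median absolute difference between groups of 0.12. The widest gaps were 0.84 for POLE with H2BK120R and 0.93 for RPA2 with vector. The median deviation of the members was 0.0075 and 0.015 on the H2BK120R arrays, and -0.09 and 0.043 on vector replicates 1 and 2. The sign of the small overall shift therefore depended on which vector array was kept. Leaving out vector replicate 1 gave a median over the list of -0.045, and leaving out vector replicate 2 gave 0.12. When each array was left out in turn, 30 of the 51 genes changed sign at least once and 20 kept it, beside GINS4, whose difference was 0.

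**Figure D4:**
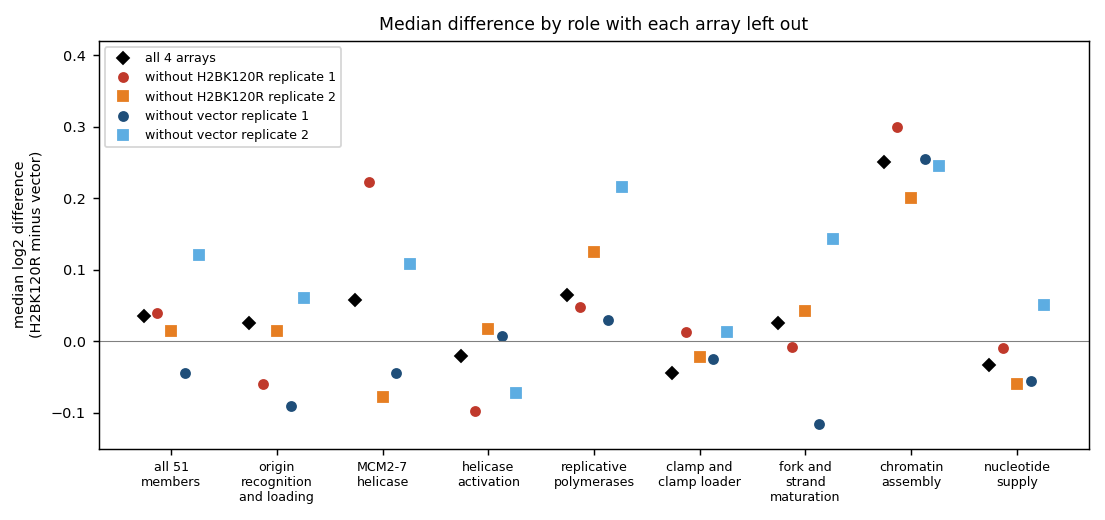
Median log2 difference (H2BK120R minus vector) over all 51 genes and over each role, with all 4 arrays and with each array left out. The medians of the polymerases and of chromatin assembly stay above 0 in every fit, and the other medians cross 0. Chromatin assembly holds 2 genes, both without overlap, so leaving out 1 array could not turn its sign.

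Other replication genes, from a list of partners drawn up by function with earlier results of these data known, also had 0 genes past the threshold. Of 64 listed 59 were measured, and 40 were higher (67.8%) and 19 lower with H2BK120R, with a median of 0.09. Of all probe sets 49.9% were higher. Among the brighter 10724, which hold 58 of the 59 partners, 54.4% were higher, with a median of 0.03. At an adjusted limma p of 0.05, 0 partners passed. The groups did not overlap in 26 partners, 17 higher and 9 lower, or 44.1%. The share was 36.5% of all probe sets, 38.9% of the brighter 10724 and 33.3% of the members. At an unadjusted limma p under 0.05 there were 3 higher and 1 lower (6.78%, against 6.70% of all probe sets). With single arrays left out that count changed, as did the count over all probe sets, and the median of the partners lay between 0.015 and 0.13. ATAD5, which takes PCNA off DNA, was at 10.08 and 10.44 with H2BK120R and 9.49 and 9.65 with vector (0.69 ± 0.19, limma adjusted p = 0.678). MTBP, which works with treslin in firing origins, was at 9.68 and 9.95 with H2BK120R and 9.26 and 9.20 with vector (0.59 ± 0.19, limma adjusted p = 0.693). TICRR, which encodes treslin, differed by 0.48 ± 0.23. In both genes of that pair the groups did not overlap. RNASEH2A, the catalytic subunit of the nuclease that removes ribonucleotides from DNA, was at 8.23 and 8.57 with H2BK120R and 8.67 and 9.24 with vector (-0.56 ± 0.24, limma adjusted p = 0.745). The cyclin gene CCNA2 was at 13.52 on both H2BK120R arrays and at 13.29 and 12.28 with vector (0.74 ± 0.25), a difference that was 0.23 without vector replicate 2.

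Of the 10 measured origin firing partners 9 were higher, with a median of 0.20, beside 54.4% of the brighter 10724 probe sets. TOPBP1 and MCM8 differed by 0.21 ± 0.13 and 0.20 ± 0.14. Without vector replicate 1, CDC7 and DBF4 were no longer higher. Their H2BK120R means were 9.545 and 10.71, against 9.61 and 10.81 on vector replicate 2. The 14 fork and maturation partners had a median of 0.01 with 8 higher and 6 lower, among them the topoisomerase TOP1 (0.24 ± 0.15) and CHTF18, of an alternative clamp loader (-0.34 ± 0.27). All 6 nucleosome assembly partners were higher by little, from 0.005 to 0.19, with 0 free of overlap. They included ASF1A (0.12 ± 0.22), ASF1B (0.19 ± 0.19), RBBP4 (0.12 ± 0.15) and RBBP7 (0.11 ± 0.18). Without vector replicate 1, ASF1A, RBBP7, NASP and SLBP were lower with H2BK120R, and ASF1B and RBBP4 stayed higher. For NASP the H2BK120R mean was 12.44 against 12.51 on vector replicate 2, and for SLBP 9.345 against 9.57. The 9 nucleotide partners had a median of 0.01, with SAMHD1, which breaks down deoxynucleotides, at 0.30 ± 0.18, RRM2B at 0.20 ± 0.14, DCTPP1 at -0.23 ± 0.19 and PAICS at 0.11 ± 0.10. The 20 regulators of S phase entry had a median of 0.09. E2F1 itself differed by -0.055 ± 0.21, the cyclin E gene CCNE1 by -0.32 ± 0.17, CDK2 by 0.17 ± 0.11 and the E2F partner TFDP2 by 0.40 ± 0.23, or 0 without vector replicate 1. All 8 proliferation markers, MKI67 among them, were higher, with a median of 0.15, beside 49.9% of all probe sets and 54.4% of the brighter 10724 that were higher. The groups did not overlap in 4 of the 8, all higher, against 18.6% of all probe sets and 2357 of the brighter 10724 on that side. In the other 4 the H2BK120R mean lay below vector replicate 2, so their higher sign rests on vector replicate 1. The values were 11.915 against 11.98 for CCNB1, 12.435 against 12.45 for BUB1, 15.755 against 15.81 for PLK1 and 9.17 against 9.21 for AURKB. Over all 8 markers the mean log2 level was 12.78 and 12.88 on the H2BK120R arrays and 12.53 and 12.79 on the vector arrays. Their part in the differences of the replication genes was not tested.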

How the data were processed

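RNA was profiled on a whole-transcript array in 2 samples with H2BK120R and 2 with vector, grouped by their titles. The authors deposited 1 log2 level per probe set and array, already normalized between arrays; the log base is inferred from the range of 1.56 to 19.15 and the normalization from array medians of 6.40 to 6.43. The submitters' processing notes name MAS5. Not given in the sources used here are its version, the background correction and any detection calls. Of 21448 probe sets 17709 had 1 gene symbol and 3739 were unnamed here, and all 17709 gene IDs matched RefSeq's GRCh38.p14 table. The brightest probe set stood for a gene.

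The main model, lmFit with a trended eBayes step from limma 3.58.1 under R 4.3.3, was fitted to all probe sets as deposited, two-sided, with Benjamini-Hochberg adjustment over all of them, 2 residual and 8.95 prior degrees of freedom. Tested on simulated data for this comparison with 21448 genes, it called 24.3% of 200 genes shifted by 1 on the log2 scale, 92.2% at a shift of 2 and 99.9% at 3. The shifted genes were drawn from all probe sets, with normal noise whose spread came from limma's fitted prior. The median standard error was 0.28 over all probe sets and 0.17 over the members, so these shares do not describe the members. The number of arrays limits the precision.

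The members and lists were chosen with earlier results of these data known. The naming rule gave values on all arrays to members with an unadjusted p under 0.05, to the highest and lowest of each role group and to 7 textbook members, and named up to 4 partners of each list with the smallest p. The arrays of POLE and POLD1 were given, and E2F1 was named, outside that rule. The 13 alternatives were other normalizations, filters, variance models and probe set rules, the replicate number as a block, and each array left out. A planned pseudocount does not apply to log2 values. Plots used matplotlib 3.10.9.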

Additional observations from a re-analysis of the deposited data

How the results depend on the processing

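No member passed an adjusted p of 0.05 in limma under any of the 13 alternatives, and the members at an unadjusted p under 0.05 numbered 2 as reported and in each fit on all 4 arrays. With 1 array left out the count of members could change, and the count over all probe sets changed too. Those fits take the spread of a group with 1 array from the other group. The median over the members lay between -0.045 and 0.12. By role the medians without 1 array ranged from -0.09 to 0.06 for origin recognition and loading, -0.078 to 0.22 for the MCM ring, -0.098 to 0.018 for helicase activation, 0.03 to 0.22 for the polymerases, -0.025 to 0.013 for the clamp and its loader, -0.12 to 0.14 for fork and strand maturation, 0.20 to 0.30 for chromatin assembly and -0.06 to 0.05 for nucleotide supply. The partner genes had a median between 0.015 and 0.13 and between 0 and 6 genes at an unadjusted p under 0.05. On all 4 arrays the partner median was 0.059 after quantile normalization, and 2 partners were at an unadjusted p under 0.05 without the variance trend. After quantile normalization CDC6 was at -0.0125, and the medians were -0.0125 for origin recognition and loading and -0.0091 for fork and strand maturation, all 3 above 0 as reported. GINS4, at 0 as reported, was slightly below 0 there and with equal array medians. Among the members, the partners named for their smallest p and these medians, no other sign was turned on all 4 arrays. That covers each normalization, filter, variance model and probe set rule and the replicate block. The list below covers the same members and partners. The proliferation markers and the partners not named for their smallest p, E2F1 among them, were outside these sign checks. The H2BK120R arrays of E2F1 (9.06 and 8.89) lay between its vector arrays (9.22 and 8.84), so its sign is not settled. The genes whose sign turned with 1 array left out were, with their range, ORC1 (-0.32 to 0.06), ORC5 (-0.085 to 0.015), ORC6 (-0.175 to 0.265), CDC6 (-0.125 to 0.195), CDT1 (-0.195 to 0.245), GMNN (-0.33 to 0.01), MCM2 (-0.03 to 0.17), MCM3 (-0.05 to 0.32), MCM4 (-0.065 to 0.495), MCM5 (-0.31 to 0.40), MCM10 (-0.015 to 0.555), GINS1 (-0.12 to 0.04), PRIM1 (-0.015 to 0.135), PRIM2 (-0.045 to 0.535), POLD2 (-0.18 to 0.25), POLD4 (-0.06 to 0.20), POLE (-0.45 to 0.39), POLE2 (-0.22 to 0.52), PCNA (-0.045 to 0.175), RFC1 (-0.24 to 0.07), RFC2 (-0.275 to 0.065), RFC3 (-0.135 to 0.125), RFC4 (-0.485 to 0.035), RFC5 (-0.005 to 0.175), FEN1 (-0.145 to 0.035), LIG1 (-0.08 to 0.42), RPA1 (-0.15 to 0.12), RPA2 (-0.395 to 0.535), TIPIN (-0.035 to 0.165), RRM1 (-0.025 to 0.125), and the partners RBBP7 (-0.155 to 0.365) and ASF1A (-0.16 to 0.40). Apart from the smaller number of arrays, the cause was not tested.

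The replicate numbers share no stated culture or day, and the deviations of equally numbered arrays from their group means correlated at 0.14 over all probe sets. With the replicate number as a block, 2 members, again POLE4 and RPA3, were at an unadjusted limma p under 0.05 and 0 passed the adjusted threshold, while the count over all probe sets was 1846 in place of 1437.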

Other observations

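The members were also set beside their genomic length and their level, as a description over genes that share the same 4 arrays. Across the 51 genes the Spearman correlation between genomic length and log2 difference was 0.22, and 0.24 over the 49 without POLE4 and RPA3. It was 0.12 over the 17687 genes with a named probe set. The shorter 26 members had a median difference of 0.035 and the longer 25 a median of 0.045. Among all named genes, those no longer than the median member had a median of -0.03 and the longer ones a median of 0.045. With mean level the correlation was -0.039 over the members and 0.14 over all named genes.

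Subunits of 1 complex often differed in sign. In GINS 1 gene was higher, 2 were lower and 1 was equal, in polymerase epsilon 1 was higher and 3 were lower, and in replication protein A 1 was higher and 2 were lower. In polymerase alpha with primase all 4 were higher. Many of these signs are not settled: those of GINS1, POLE, POLE2, RPA1, RPA2, PRIM1 and PRIM2 turned with 1 array left out. These groupings were made after the values were seen, and no test was run on them.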
